A study of Mus musculus with 89 samples.

Results

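Goblet-containing villus clumps are small fragments of mouse jejunal epithelium, each sequenced as 1 well, that carried both villus enterocyte RNA and goblet cell RNA. A well of mice 1 to 5 was kept with over 500 UMIs (unique molecular identifiers, 1 per captured RNA molecule), at least 200 detected genes and at most 30% mitochondrial UMIs. It was called villus-like when the apolipoprotein genes Apoa1, Apoa4 and Apob together made up at least 1% of its UMIs, and goblet-containing when Muc2, Fcgbp, Zg16, Clca1, Tff3 and Spink4 together made up at least 0.5%. Of 34012 wells in the series, 17162 held clumps, 6004 of these passed the limits in mice 1 to 5, 2067 were villus-like, and 190 were goblet-containing. These 190 wells are called members below. They were compared with 1218 villus-like wells in which the same 6 genes made up under 0.05% of UMIs, and the 659 villus-like wells between the limits were left out.

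All mice were C57BL/6 males on regular chow, and the labels give their age as 3 months. Jejunum was dissociated with EDTA, which loosens the epithelium but leaves cells attached to each other, and clumps were sorted by DNA content into pairs (4n, mice 1 to 5) and larger clumps (above 4n, mice 1, 4 and 5). Epithelial single cells, sorted on Epcam with CD45 or CD24 gates that differed between sorts, form a separate table whose mice are numbered apart, with some plates of its mouse 2 labelled 4 months, so this replicate may pool more than 1 animal. Both tables hold UMI counts from MARS-seq, a plate-based 3' RNA sequencing method.

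Goblet cells are secretory cells scattered among the absorptive enterocytes of the crypt and villus. They store mucin granules whose gel, built on Muc2, covers the epithelium, and they also release antibacterial lectins, trefoil peptides and enzymes that process mucus. Enterocytes of the villus take up nutrients and package lipid with apolipoproteins, and their gene expression changes from the base of the villus to its tip.

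The members came from 28 plates, 152 as pairs and 38 as larger clumps. Mouse 1 gave 27 wells, mouse 2 gave 6, mouse 3 gave 123, mouse 4 gave 17 and mouse 5 gave 17. Mouse 3 thus held most of the members, and mouse 2 held the largest number of comparison wells, with 547 of 1218 (266 in mouse 1, 270 in mouse 3, 49 in mouse 4 and 86 in mouse 5). The median member had 1775 UMIs and the median comparison well 1550. Summed UMIs of the members were 75933, 13375, 428274, 77616 and 26173 in mice 1 to 5, and those of the comparison wells ranged from 109618 to 1148806. Pooled mitochondrial shares of the members were 6.16%, 3.73%, 6.62%, 5.64% and 18.5% in mice 1 to 5, so mouse 5 stood apart. In the comparison wells mice 1 to 3 ranged from 7.60% to 8.84%, and mice 4 and 5 had 14.9% and 22.0%. The part of mitochondrial share in the results was not tested. The mouse was the replicate throughout, and counts were summed over wells within each mouse. In such sums, fewer cells of a type and less RNA per cell cannot be told apart.

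The goblet share that chose the members spread without a gap. Of the 2067 villus-like wells, 35 had a share of 0.5% to 1%, 35 of 1% to 2%, 35 of 2% to 5%, 35 of 5% to 10%, 34 of 10% to 20% and 16 of 20% or more. The 5 wells just inside the limit had shares of 0.501% to 0.576%, and the 5 just outside had 0.479% to 0.496%. The 5 just inside held 4 to 79 UMIs of the 6 genes and the 5 just outside 3 to 16, so some rest on few molecules. The member with the fewest held 4 UMIs of the 6 genes. Of the comparison wells, 1018 held no UMI of the 6 genes. Pooled over wells, the 6 genes made up 12.1%, 10.1%, 10.3%, 3.38% and 4.18% of member UMIs in mice 1 to 5, against 17.4% to 23.9% in goblet single cells of 4 mice. The members' shares were thus below those of single goblet cells in every mouse, and those of mice 4 and 5 were the lowest.

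**Figure D1:**
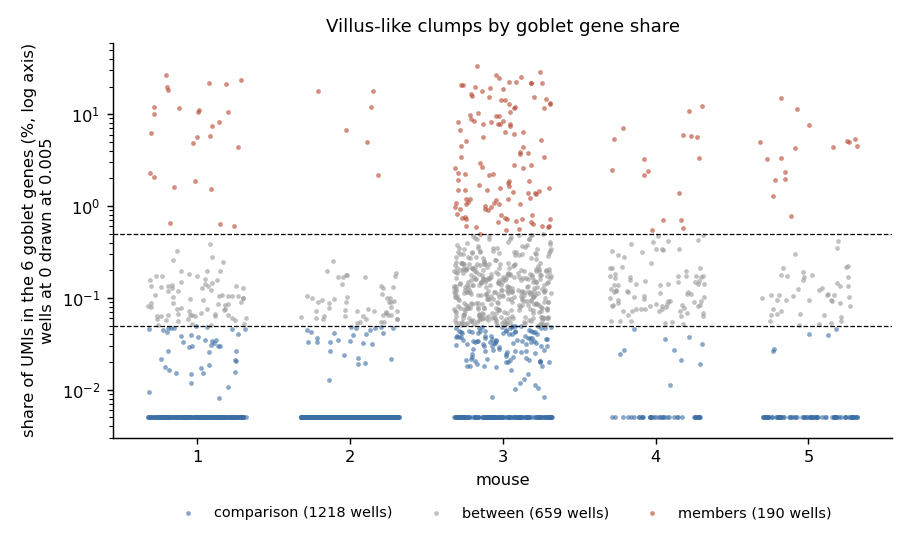
Share of UMIs in the 6 goblet genes (y axis, percent, log axis, wells at 0 drawn at 0.005) in each villus-like clump, by mouse (x axis), with 1 point per well and dashed lines at 0.05% and 0.5%. The 190 members lie between 0.501% and 33.2% with no gap at the upper line, and 123 of them belong to mouse 3.

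The 6 genes that chose the members are given as a description, with no test. Levels are in CPM, a gene's UMIs per 1000000 UMIs of a sum, here taken over the UMIs of all genes. Zg16, an antibacterial lectin of the granule, had 56879, 49944, 45700, 15332 and 18187 CPM in the members of mice 1 to 5, against 15.5 to 104.5 CPM in the comparison wells. Tff3, a trefoil peptide that protects and helps repair the surface, had 44065, 44411, 30550, 10797 and 13640 CPM. Zg16 and Tff3 supplied 44.9% and 31.2% of the UMIs of the 6 genes, and Zg16 led in 115 members and Tff3 in 53.

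Muc2, the gel-forming mucin, had 4333, 1047, 6402, 1636 and 1872 CPM in members and at most 14.8 CPM in comparison wells. Fcgbp, a large protein of the mucus gel, had 7691, 673, 12845, 3801 and 4088 CPM. Both were lowest in mouse 2, whose Zg16 level was among the highest. Clca1, a metalloprotease that processes mucus, ranged from 1044 to 4971 CPM and Spink4, a Kazal-type protease inhibitor, from 1198 to 3529 CPM over the 5 mice. All 6 genes were seen in 104 of the 190 members, 5 of them in 33, 4 in 23, 3 in 25, and fewer in 5.

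Positions are those of GENCODE vM21 on GRCm38, and each gene here is protein-coding. Muc2 lies at chr7:141690340-141754693 on the plus strand and Agr2, the leading gene outside the rule in the goblet list below, at chr12:35992907-36004087 on the plus strand. The 250 bases before a RefSeq start of each are shown because both genes were high in the members. Capitals mark CCAAT or its reverse complement ATTGG, the box within the endoplasmic reticulum stress element of secretory cell genes. The Muc2 stretch is chr7:141690090-141690339 and the Agr2 stretch chr12:35992675-35992924, both on the plus strand, with the sequence from RefSeq for GRCm38.
Muc2: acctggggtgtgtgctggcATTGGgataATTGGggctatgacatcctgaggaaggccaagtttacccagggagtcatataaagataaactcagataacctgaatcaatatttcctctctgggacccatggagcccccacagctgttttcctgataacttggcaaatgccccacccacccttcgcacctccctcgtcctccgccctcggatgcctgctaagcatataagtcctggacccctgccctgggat
Agr2: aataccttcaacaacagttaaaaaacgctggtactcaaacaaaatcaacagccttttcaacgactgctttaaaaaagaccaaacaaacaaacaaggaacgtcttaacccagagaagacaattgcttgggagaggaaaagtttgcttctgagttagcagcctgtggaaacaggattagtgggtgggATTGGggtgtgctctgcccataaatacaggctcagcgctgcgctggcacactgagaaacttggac
CCAAT, on either strand, matched 33.8% of 32851 RefSeq starts and 12 of 36 starts of the genes looked up (the 6 rule genes, Ido1, the genes called below and the goblet list, of which 30 of 47 were matched by name), so its share there was close to that over all genes. The full element, CCAAT followed by 9 bases and CCACG on either strand, which contains CCAAT, was in 37 starts of all (0.113%) and in 0 of these 36. GAAANNGAA, the core of an interferon response element, was in 7.13% of all starts and in 1 of the 36, that of Sgsm3.

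The first comparison asked which genes other than the 6 differ between members and comparison wells. Of 1346 genes tested 5 were higher in members (0.371%) at an adjusted p under 0.05 by edgeR's quasi-likelihood test with Benjamini-Hochberg adjustment. These were 9530053A07Rik, Agr2, S100a6, Krt18 and Lgals2. No gene was lower (0%) by the same test, where 23 genes were higher and 9 lower at an unadjusted p under 0.05, and DESeq2 called 8 higher and 0 lower. The wells were chosen by goblet genes, so other genes of goblet cells are not independent of that choice. A gene could also pass the filter on low counts through the sums of a single group. Agr2, 9530053A07Rik, S100a6 and Krt18 passed it through their member sums, the group where they were high. From here, CPM are taken over UMIs without the 6 genes.

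With the mouse as a replicate block, 17 genes were higher (1.26%) and 3 lower (0.223%), and the block kept all 5 genes. Both arms came from the same animals, and this fit compares them within each. Without the filter on low counts, 89 of 17341 genes were higher (0.513%) and 2 lower (0.0115%), and in pairs alone 37 of 2982 were higher (1.24%) and 0 lower (0%). The pairs gave member sums of 3 mice only (mice 1 to 3), against comparison sums of 5. The unfiltered count holds Ido1, a given marker of these clumps, whose call is not used. All 5 genes passed in those fits too. As a count with no test, 76 of the 1346 genes were higher in members of each of 5 mice (5.65%) and 46 were lower in each (3.42%).

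Agr2 encodes a protein disulfide isomerase that goblet cells need to fold mucin. It had 1977, 1829, 1757, 627 and 877 CPM in the members of mice 1 to 5 and 10.6, 3.09, 15.7, 43.6 and 9.12 CPM in the comparison wells. The groups did not overlap, and members of mice 4 and 5 were the lowest. The means were 1414 ± 615 and 16.4 ± 15.8 CPM (SD, n = 5 mice each), and the difference was 6.75 on the log2 scale (SE 0.58, edgeR adjusted p = 2.9e-05).

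9530053A07Rik, an Fcgbp-like gene, had 6321, 665, 9530, 1614 and 2113 CPM in members and 0 to 26.1 CPM in comparison wells. The groups did not overlap, and like Fcgbp and Muc2 it was lowest in mouse 2. The difference was 8.94 on the log2 scale (SE 0.89, edgeR adjusted p = 7.9e-05). It lies at chr7:28129466-28164811, beside Fcgbp at chr7:28071236-28120862, and the level is uncertain because the counting could split reads between such similar neighbours.

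S100a6, a small calcium-binding protein, had 2127, 1746, 1749, 360.0 and 598 CPM in members and 71.4, 38.2, 64.4, 0 and 45.6 CPM in comparison wells. Member means were 1316 ± 784 CPM and comparison means 43.9 ± 28.0 CPM (SD, n = 5 mice each). Every member sum exceeded every comparison sum, with a log2 difference of 4.69 (SE 0.59, edgeR adjusted p = 0.00076).

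Krt18, a keratin of simple epithelia, had 584, 249, 396, 253 and 199 CPM in members and 103.3, 41.3, 40.1, 34.9 and 18.2 CPM in comparison wells. The groups did not overlap, although mouse 1 stood apart among the comparison sums, and the log2 difference was 2.72 (SE 0.40, edgeR adjusted p = 0.0036). Counts were low in some sums, with 3 UMIs in members of mouse 2 and 5 in those of mouse 5. Comparison wells of mice 4 and 5 held 4 and 2 UMIs. The Krt18 call missed the threshold without mouse 3 (adjusted p = 0.059) and with DESeq2 size factors in edgeR (adjusted p = 0.23).

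Lgals2, a galactose-binding lectin, had 4703, 5820, 2981, 1667 and 558 CPM in members and 398, 293, 355, 654 and 63.9 CPM in comparison wells. Members were higher within each of the 5 mice, but the ranges overlapped, since mouse 5 members were below mouse 4 comparison wells. The log2 difference was 3.03 (SE 0.55, edgeR adjusted p = 0.023). Leaving out mouse 1, 2 or 3 gave adjusted p values of 0.26, 0.20 and 0.19, DESeq2 size factors gave 0.23 and apolipoprotein at least 2% gave 0.086, with log2 differences of 2.32 to 3.10.

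**Figure D2:**
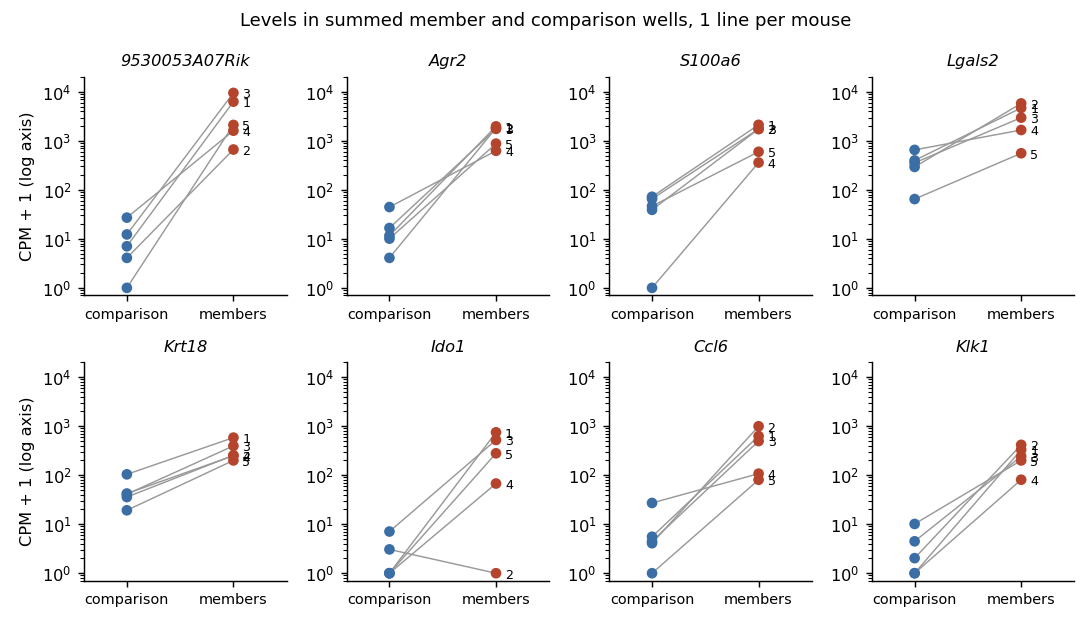
Level of 8 genes in summed comparison and member wells (y axis, CPM + 1, log axis), with 1 line per mouse and the mouse number at the member point. Members are higher in each of the 5 mice except for Ido1, where mouse 2 has 0 CPM in members and 2.06 CPM in comparison wells.

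Ido1, the tryptophan-degrading enzyme indoleamine 2,3-dioxygenase, was one of the genes given as markers of these clumps but was not used to choose them. A UMI of Ido1 was found in 72 of 190 members (37.9%, 95% Wilson interval 31.3% to 45.0%) and in 7 of 1218 comparison wells (0.575%, 0.279% to 1.18%), at median depths of 1775 and 1550 UMIs. The intervals cover counting error only. By mouse, 15 of 27, 0 of 6, 48 of 123, 4 of 17 and 5 of 17 members held one. The 0 of 6 in mouse 2 allows a share of up to 50% at 3 wells of the total (Wilson upper limit 39.0%). With each well thinned to 500 UMIs, 13.7% of members and 0.164% of comparison wells held one.

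Ido1 levels were 749, 0, 523, 66.7 and 279 CPM in members and 0, 2.06, 6.10, 0 and 0 CPM in comparison wells. Members were higher in mice 1, 3, 4 and 5 and not in mouse 2. Ido1 did not pass the filter on low counts and, as a given marker, its difference between these wells is a description with no test. Of the 85 members with a goblet share of at least 5%, 65.9% held an Ido1 UMI, and of the 105 below it 15.2%, as a description of wells that share mice and plates. Depth differed between them, with medians of 3008 and 1083 UMIs, and after thinning to 500 UMIs the shares were 24.7% and 4.76%.

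Apolipoprotein expression is known to rise toward the villus tip, and the members were set below and above the median share of their own mouse, as a description with no test. Ido1 was 331 CPM of all UMIs in the lower wells and 1071 CPM in the upper wells of mouse 1, 474 and 465 in mouse 3, 57.2 and 79.5 in mouse 4, and 414 and 85.7 in mouse 5. It was higher in the upper wells of mice 1 and 4 and lower in those of mice 3 and 5. The share of all 6 rule genes also moved with the split, from 9.59% in the lower to 15.2% in the upper wells of mouse 1, from 8.61% to 11.6% in mouse 3, from 2.09% to 6.06% in mouse 4 and from 4.21% to 4.15% in mouse 5. Zg16, Muc2, Tff3 and Clca1 were each higher in the upper wells of all 4 mice, Fcgbp in those of mice 1, 3 and 4, and Spink4 in those of mice 1 and 3, while Spink4 was lower in those of mice 4 and 5 and Fcgbp in those of mouse 5.

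The other goblet genes formed a list of 36, of which only Agr2 passed the filter on low counts. Without the filter 24 of 35 were higher and 0 lower, against 0.513% of all genes. The list summed to 5662, 5571, 4459, 1427 and 1834 CPM in members and to 54.7 to 157 CPM in comparison wells. The sums did not overlap, and those of mice 4 and 5 were the lowest. Agr2 is part of each sum.

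Ccl6, a chemokine, had 629, 998, 497, 107 and 79.7 CPM in members and 0 to 26.1 CPM in comparison wells. Klk1, a kallikrein protease, had 330, 416, 242, 80.0 and 199 CPM against 0 to 9.12 CPM. Neither gene overlapped between the groups, with log2 differences of 5.80 and 6.14 without the filter (edgeR adjusted p = 1.7e-17 and 6.5e-18). Both fell below the filter on low counts, and the separation rests on few molecules in some sums. Ccl6 had 2 UMIs from 1 well in mouse 5 members and 3 UMIs in mouse 4 comparison wells. Klk1 had 5 UMIs in the members of mouse 2 and 5 in those of mouse 5. Klk1 and the genes named in the rest of this paragraph, other than Atoh1, were named after their values were seen. Of the factors that specify secretory cells, Atoh1 had 19 UMIs in members and 2 in comparison wells, Spdef 25 and 0, and Foxa3 33 and 0. With 3 counts over the group as the floor, Spdef was at least 44.4-fold and Foxa3 at least 58.6-fold higher in members.

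Genes of the secretory route were read from lists of their steps, where calls without the filter are set against 0.513% of all genes. Agr2, Spdef, Atoh1, Creb3l1, Galnt12, Gcnt3, Chst4 and Ern2, named below, are also in the goblet list above. Their calls are not separate from that list. Of secreted defence and mucus proteins, 1 of 5 tested was higher (Agr2), against 0.371% of all genes, with a median log2 difference of -0.27. Without the filter 7 of 15 were higher. Reg3b, an antibacterial lectin made by enterocytes, had a log2 difference of -0.45 (edgeR adjusted p = 1.0). Of goblet transcription factors, 0 of 4 tested were higher (median 0.41), and without the filter 4 of 18 were, namely Spdef, Atoh1, Creb3l1 and Foxa3. Klf4, which promotes goblet differentiation, had 506 ± 180 CPM in members and 357 ± 197 CPM in comparison wells (SD, n = 5 mice each, adjusted p = 1.0).

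Mucin glycosylation genes numbered 4 tested with 0 higher (median -0.05), and 4 of 33 were higher without the filter, namely Galnt5, Galnt12, Gcnt3 and Chst4. Of endoplasmic reticulum folding genes, 0 of 9 tested were higher (median 0.12) and 3 of 40 without the filter, namely Ern2, Selm and Txndc5. P4hb, the abundant disulfide isomerase, had 1689 ± 433 CPM in members and 1509 ± 438 CPM in comparison wells (SD, n = 5 mice each), a log2 difference of 0.02 (SE 0.26). Translocon and Golgi transport genes gave 0 of 19 higher (median 0.09) and 0 of 50 without the filter. For granule traffic these counts were 0 of 2 (median -0.22) and 8 of 20, with Rab27a, a GTPase of granule release named after its values were seen, at 50 UMIs in members and 1 in comparison wells. Over all 1346 genes tested the median was -0.05. DESeq2 size factors moved it to -0.68, so list medians are to be read against the median of all genes.

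Enterocyte genes were not called in either direction in the main fit, and their medians were below 0. The scaling factors of that fit (TMM) were 0.932 to 2.03 in member sums and 0.699 to 0.934 in comparison sums. Log2 differences therefore lie below those of the plain CPM. In plain CPM the lipid sum was higher in members of 2 mice, and the brush border and transporter sums in members of 1 mouse each. Genes of lipid uptake and chylomicron assembly had a median log2 difference of -0.29 over 18 tested, brush border enzymes -0.21 over 21 and nutrient transporters -0.39 over 16, with 0 higher and 0 lower in each. All 16 transporters had a negative value, as did most of all genes, of which 574 of 1346 were positive. Apoa4, which helped choose the wells as villus-like, had 6713 ± 1107 CPM in members and 8789 ± 4579 CPM in comparison wells. Slc5a1, the sodium-glucose transporter, had 1618 ± 680 against 1884 ± 739 CPM (SD, n = 5 mice each), a log2 difference of -0.33 (SE 0.32). Landmarks of enterocyte position had medians of 0.19 for the crypt (21 tested), -0.20 for mid-villus (8) and -0.50 for the tip (20), with 0 called in each.

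With the replicate block, 2 of the 20 tip landmarks were lower, Ada and 2010107G12Rik, against 0.223% of all genes. Ada, adenosine deaminase, had 165, 499, 765, 200 and 319 CPM in members and 919, 1631, 1024, 314 and 474 CPM in comparison wells. It was lower in members of each mouse, while the ranges overlapped, and the blocked log2 difference was -1.12 (edgeR adjusted p = 0.0046; 1.0 without the block). The median apolipoprotein share of members was 1.86%, 2.40%, 1.71%, 2.48% and 1.82% of UMIs in mice 1 to 5, against 2.31%, 3.91%, 3.24%, 1.40% and 1.78% in comparison wells. It was lower in members of mice 1 to 3 and higher in those of mice 4 and 5, and its part in these values was not tested. Ada and 2010107G12Rik were named after their values were seen.

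Further epithelial genes passed with the block and not in the main fit. Tspan8, a tetraspanin, had 434, 582, 474, 253 and 239 CPM in members and 120, 158, 212, 105 and 73.0 CPM in comparison wells, without overlap (log2 difference 1.42, edgeR blocked adjusted p = 8.1e-05; 0.066 without). Of its 17 alternatives 7 passed, 5 of them without the block (DESeq2, members at least 1%, over 1000 UMIs, the rule genes in the totals and without mouse 4, at adjusted p values of 0.0014 to 0.047), and the block with no filter did not (0.99, adjusted p = 0.57). Lypd8, a secreted protein that binds flagellated bacteria, had 2831, 2328, 2671, 2040 and 1954 CPM against 731, 901, 850, 2144 and 1040 CPM. It was higher in members of mice 1, 2, 3 and 5 and lower in mouse 4, with a blocked log2 difference of 1.06 (edgeR adjusted p = 0.013; 1.0 without), which missed the threshold with the block and no filter (0.57, adjusted p = 0.96) and with the block without mouse 2 (adjusted p = 0.067). Tspan8 and Lypd8 were named after their values were seen.

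No gene of the immune lists was called in the main fit. Interferon response genes had a median log2 difference of -0.16 over 16 tested with 0 higher, and without the filter 0 of 51 other than Ido1 were called in either direction by edgeR, with 4 at an unadjusted p under 0.05. B2m, the light chain of class I antigen presentation, had 2938 ± 1143 CPM in members and 3236 ± 1426 CPM in comparison wells. Cd74, the class II invariant chain, had 1417 ± 972 and 1493 ± 1380 CPM (SD, n = 5 mice each). Immune signal genes had a median of -0.26 over 9 with 0 higher, and without the filter 3 of 29 other than Ido1 were higher, namely Ccl6, Tnfaip8 and Ramp1, against 0.513% of all genes. Ccl6, Tnfaip8 and Ramp1 are also in the goblet list above, so this count is not separate from it. Membrane mucins had a median of -0.22 over 4 and ion and guanylin genes -0.25 over 6, and autophagy and stress genes had 0.17 over 4, with 0 called in each. With the replicate block, Guca2a of the guanylin list was higher in members (log2 difference 0.93, edgeR adjusted p = 0.0044; 1.0 without), 1 of 6 tested against 1.26% of all genes. It passed in 2 of 18 alternatives, and was at 0.55 (adjusted p = 0.96) with the block and no filter and at 0.27 with DESeq2 size factors. Without the filter, where 0.513% of all genes were higher, 2 of 16 of that list were, Slc12a8 and Kcnk6, and of the membrane mucins 1 of 6, Muc3a. Slc12a8 and Kcnk6 are in the goblet list too. Muc3, counted as a separate entry, had a main-fit log2 difference of -0.39 and was lower in goblet single cells (-1.82, edgeR adjusted p = 0.00037).

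Markers of other cell types were measured in the same sums. Paneth cell markers summed to 1453, 1330, 1913, 2734 and 758 CPM in members and to 647, 54.7, 644, 2894 and 54.7 CPM in comparison wells, higher in 4 of 5 mice, with 0 of the 14 markers at 0 in members. Itln1, a lectin of Paneth and goblet cells, was the 1 of 14 higher without the filter (log2 difference 1.93, edgeR adjusted p = 0.017), against 0.513% of all genes. With Defa24 it made up the 2 of 5 higher in pairs alone, against 1.24% of all genes. The leading gene Defa24 passed with the block (log2 difference 1.53, edgeR adjusted p = 0.0045) and in pairs alone (2.30, adjusted p = 0.014), but not in the main fit (1.26, adjusted p = 1.0) or in 14 of 18 alternatives, and in mouse 4 members were not higher (840.1 against 845 CPM). Without mouse 4 its log2 difference was 2.38 (edgeR adjusted p = 0.089). Myeloid markers summed to 120 to 166 CPM in members against 36.5 to 113 CPM, with 7 of 9 at 0. Enteroendocrine markers reached 147 CPM in members and 474 CPM in comparison wells, and cell cycle and crypt markers ranged from 85.9 to 320.0 against 68.8 to 157 CPM. The cell cycle and crypt sum was higher in members of each of the 5 mice, on 2 to 33 UMIs per member sum.

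Tuft markers reached 26.7 CPM in members (9 of 12 at 0), lymphocyte markers 39.9 CPM (10 of 14 at 0), stroma markers 39.9 CPM and erythroid markers 0. Plasma cell and B cell markers were at 0 in the members of mice 1, 2, 4 and 5 and at 242 CPM in mouse 3, where 68 of 76 Igha UMIs came from 1 well. Without the filter 1 of 5 plasma cell and B cell markers was higher, against 0.513% of all genes. Whether RNA of other cells contributed to the differences above was not tested. The markers Muc2, Fcgbp, Zg16 and Clca1 were present in the members of each mouse, and Ido1 in those of 4 of 5.

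Goblet single cells served as separate libraries for the same genes. A total of 205 cells with a goblet share of at least 2% were compared with 865 enterocyte cells in sums of 4 mice, and 422 of 1800 genes were higher (23.4%) and 446 lower (24.8%) by edgeR with Benjamini-Hochberg adjustment. With DESeq2 size factors the split was 231 higher and 738 lower. Pooled mitochondrial shares were 14.7% to 15.2% in the goblet cells and 29.1% to 32.2% in the enterocyte cells of the 4 mice, and their part in these calls was not tested. All 5 genes higher in the members were also higher in goblet cells. Agr2 averaged 4263 ± 1143 CPM in goblet cells and 7.87 ± 8.44 CPM in enterocytes, and Lgals2 6205 ± 1208 and 57.4 ± 21.5 CPM (SD, n = 4 mice each). Ido1 had 3912, 3312, 2089 and 871 CPM in goblet cells and 0 to 6.3 CPM in enterocytes, a log2 difference of 9.80 (edgeR adjusted p = 1.2e-07).

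Median differences in clumps were smaller than in cells. Of genes higher in goblet cells, 200 were tested in clumps, 164 of them had a positive value there, and their median log2 difference was 0.22 in clumps and 1.93 in cells. Of genes lower in goblet cells, 375 were tested in clumps, 309 were negative, and the medians were -0.22 and -2.20. Of all 1166 genes tested in both, 500 were positive and 666 negative in clumps. Brush border enzymes were lower in goblet cells for 19 of 19 tested and lipid genes for 18 of 18, against 24.8% of all genes. The clumps gave no call for these lists. Enterocyte cells were chosen by a floor on apolipoprotein share and goblet cells were not, with pooled shares of 2.28% and 0.0904%. Lower enterocyte genes in goblet cells are therefore not independent of that choice. Members and comparison clumps both had to pass such a floor, so the cell and clump results for these lists are not like for like. Of the 89 genes higher without the filter, 61 were tested in cells and 59 were higher there.

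**Figure D3:**
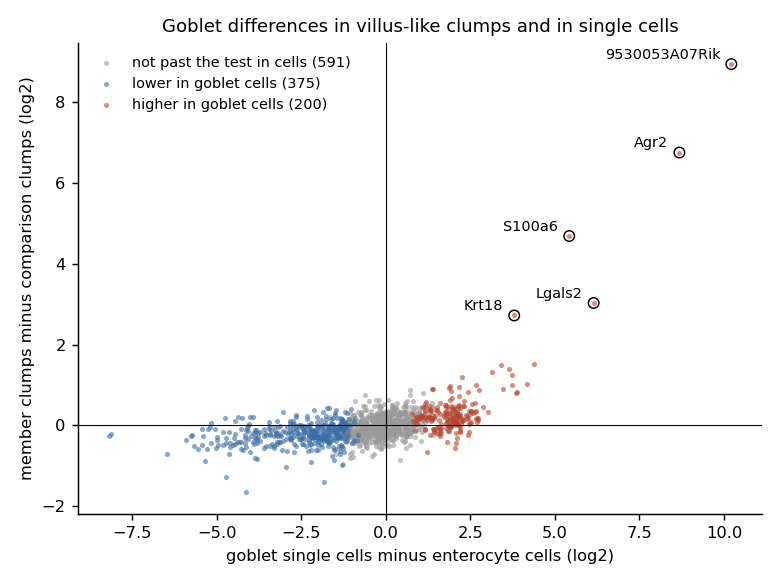
Difference between goblet single cells and enterocyte cells (x axis, log2) against the difference between member and comparison clumps (y axis, log2), 1 point per gene tested in both, colored by the call in cells, with rings on the 5 genes called in clumps. Most of the 200 genes higher in goblet cells lie above 0 in clumps, but near it.

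The second comparison asked whether the goblet difference itself differs between villus-like clumps and clumps with little apolipoprotein RNA, where Apoa1, Apoa4 and Apob made up under 0.1% of UMIs. The latter had 412 goblet-containing and 888 comparison wells by the same goblet limits, in the same 5 mice. Of 4188 genes tested for the difference of differences, 1 was higher (0.0239%) in villus-like clumps, Tspan1, and 1 lower (0.0239%), Guca2a. With the replicate block 11 were higher (0.263%) and 36 lower (0.86%). Of the Paneth marker list, 11 of the 12 genes tested were lower with the block, against 0.86% of all genes.

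Guca2a encodes guanylin, a peptide that controls fluid secretion. In villus-like clumps it had 929, 915, 851, 480.1 and 758 CPM in members and 591, 217, 530.2, 218 and 274 CPM in comparison wells. In apolipoprotein-low clumps it had 710.3, 841, 1650, 540.0 and 890.2 CPM in goblet-containing wells and 91.2, 17.1, 39.5, 23.4 and 0 CPM in the others. The goblet-containing wells of both kinds overlapped, while the comparison wells were higher in villus-like clumps in every mouse. The difference of differences was -4.11 on the log2 scale (SE 0.66, edgeR adjusted p = 0.0030), and without mouse 3 its adjusted p was 0.21.

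Tspan1, a tetraspanin, had 120, 0, 115, 93.3 and 120 CPM in villus-like members and 4.56, 4.13, 3.48, 0 and 0 CPM in their comparison wells. In apolipoprotein-low clumps it had 78.0, 33.0, 137, 76.6 and 49.5 CPM in goblet-containing wells and 59.0, 44.5, 42.9, 41.0 and 30.3 CPM in the others. Here the comparison wells were lower in villus-like clumps in every mouse, and the difference of differences was 3.48 (SE 0.61, edgeR adjusted p = 0.0069). The call was lost without mouse 1 (adjusted p = 0.30), without mouse 5 (0.10) and with DESeq2 size factors (0.081).

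In apolipoprotein-low clumps, the Paneth genes Defa24 and Lyz1 were higher in goblet-containing than in comparison wells of each mouse. Defa24, an alpha-defensin, had 10724, 544, 27029, 10361 and 5737 CPM in their goblet-containing wells and 13.7 to 643 CPM in the others, while villus-like members had 239 to 840.1 CPM. The blocked difference of differences was -4.50 for Defa24 and -4.31 for Lyz1, Paneth cell lysozyme (edgeR adjusted p = 5.2e-07 and 1.8e-06), and 0.20 and 0.30 were the adjusted p values without the block. For Muc3a, a membrane mucin, it was 3.03 with the block (edgeR adjusted p = 0.0019; 0.12 without), and for Lgals2 it was 2.16 (0.0032; 0.45 without). The separate entry Muc3 had a log2 difference of -0.39 between villus-like members and their comparison wells in the main fit. Guca2a, Lyz1, Muc3a and Muc3 were named after their values were seen.

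For Agr2 the difference of differences was -0.32 (SE 0.85, edgeR adjusted p = 1.0). Its level in apolipoprotein-low goblet-containing wells was 2513 ± 776 CPM (SD, n = 5 mice). Ido1 had 4.11, 280.4, 24.2, 1.54 and 0 CPM there, against 749, 0, 523, 66.7 and 279 CPM in the villus-like members. Ido1 was thus higher in villus-like members of 4 mice and in apolipoprotein-low wells of mouse 2. The apolipoprotein-low goblet-containing wells also held less goblet RNA, with the 6 genes at 1.83%, 3.52%, 2.80%, 1.10% and 1.70% of UMIs, and 342 of the 412 were larger clumps, where 152 of the 190 members were pairs. The part of these in the levels was not tested.

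**Figure D4:**
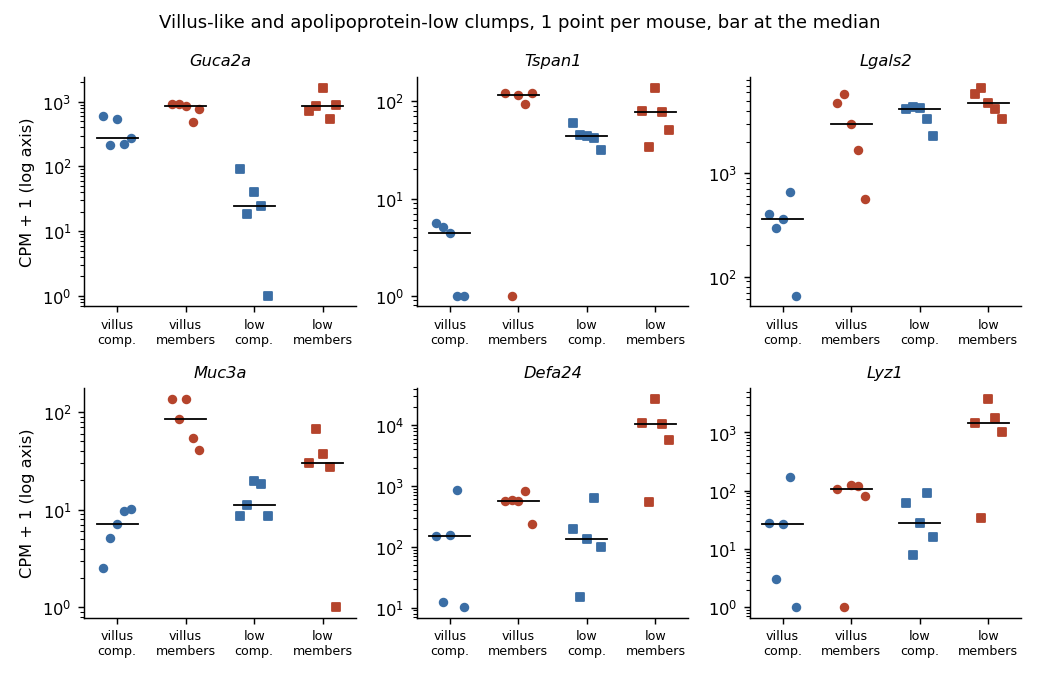
Level of 6 genes (y axis, CPM + 1, log axis) in comparison and goblet-containing wells of villus-like and apolipoprotein-low clumps, 1 point per mouse with a bar at the median. For Guca2a the goblet-containing wells overlap (480.1 to 929 and 540.0 to 1650 CPM) and the comparison wells do not (217 to 591 and 0 to 91.2 CPM).

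The last comparison asked whether larger clumps were more often goblet-containing than pairs. Among villus-like pairs, 7.12% of 267 wells in mouse 1 were members (95% Wilson interval 4.60% to 10.8%), 0.990% of 606 in mouse 2 (0.455% to 2.14%), 15.7% of 784 in mouse 3 (13.3% to 18.4%) and 21.1% of 19 in mouse 5 (8.51% to 43.3%). In mouse 4 the share was 0 of 53 wells, which allows a share of up to 5.66% at 3 wells of the total (Wilson upper limit 6.76%). Among larger clumps the shares were 7.77% of 103 wells in mouse 1 (3.99% to 14.6%), 16.2% of 105 in mouse 4 (10.4% to 24.4%) and 10.0% of 130 in mouse 5 (5.94% to 16.4%).

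The shares of the mice overlapped between the sorts. Mean shares were 11.3% ± 4.36 (SD, n = 3 mice) in larger clumps and 8.97% ± 9.20 (SD, n = 5 mice) in pairs. Mice 1, 4 and 5 gave both sorts, and within them larger clumps differed from pairs by 0.651, 16.2 and -11.1 percentage points, so in no common direction. The mean of these differences was 1.93 points (SD 13.7, n = 3 mice; two-sided exact sign-flip permutation test, p = 0.75, where the smallest p this design allows is 0.25). The difference of 2.35 points between the mean shares of the sorts gets no p, since the 8 shares came from 5 mice, and without mouse 4 it was -2.33 points.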

How the data were processed

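Clumps and single cells were measured by MARS-seq. The authors demultiplexed reads (bcl2fastq 2.15.0.4 per the submitters' processing notes), aligned them to GRCm38 and deposited whole-number UMI counts per gene and well, with no normalization. Background was not subtracted here, since the 4 empty wells per plate are not identified in the tables. Well barcodes repeat between plates by design, and no wells held identical counts.

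Wells, members and comparison wells were chosen as given in the report, and 5 wells per mouse were needed in a group. The members and gene lists were chosen with earlier results of these data known. Apolipoprotein-low wells had the same quality and goblet limits. Single-cell wells were kept when they had 200 to 7000 UMIs, a gene number of 150 to 1500 and a mitochondrial share of at most 40%, with a goblet share of at least 2%, and enterocyte cells had a share under 0.05% and at least 1% apolipoprotein UMIs.

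Counts were summed per mouse without the 6 rule genes and tested with edgeR 4.0.16 in R 4.3.3 (TMM, filterByExpr, quasi-likelihood test, Benjamini-Hochberg at 0.05), with no block in the main fit. DESeq2 1.42.0, DESeq2 size factors, no filter, a replicate block, pairs alone, over 1000 UMIs, thinning to 500 UMIs, other limits on goblet and apolipoprotein share, and leaving out each mouse were alternatives. Scripts were tested on simulated data. CPM in the text are plain shares of UMIs. Since 1 animal gave both arms, same-numbered sums are paired, and their deviations from the group means correlated at 0.468, 0.332, 0.492, 0.562 and 0.436 in clumps of mice 1 to 5 and at 0.447, -0.0011, 0.340 and 0.178 in cells of mice 1 to 4.

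The permutation test planned over the 8 shares of larger clumps and pairs is not printed, because 3 mice gave both sorts, and a sign-flip test within those mice, chosen after seeing the data, took its place (SciPy 1.17.1).

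Named genes were the rule genes and Ido1, the 4 highest members of each list past the test and the 2 highest not past it (a selection is printed), and the 10 largest changes each way that held in every mouse and reached 50 CPM. All other genes, including those that spell out a small count, were named after their values were seen. Promoter letters came from RefSeq for GRCm38, and the names Ido1, Zg16, Clca1, Tff3 and Spink4 found no match among the starts used.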

Additional observations from a re-analysis of the deposited data

Results flagged for a closer look

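Of 45 groups of sums examined, 5 held a mouse far from the other mice by Dixon's criterion, which chance meets in about 1 in 20 groups. Krt18 stood at 103.3 CPM in the comparison wells of mouse 1, against 18.2 to 41.3 CPM in the other mice. The pooled mitochondrial share of the members was 18.5% in mouse 5, against 3.73% to 6.62%. Paneth markers summed to 2894 CPM in the comparison wells of mouse 4, against 54.7 to 647 CPM, and stroma markers to 43.6 CPM there, against 0 to 9.28 CPM. Plasma cell and B cell markers summed to 242 CPM in the members of mouse 3 and to 0 in the other mice.

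For Guca2a and Tspan1, the goblet difference differed between villus-like and apolipoprotein-low clumps by an edgeR contrast of the differences, at -4.11 and 3.48 on the log2 scale.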

How the results depend on the processing

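S100a6, Agr2 and 9530053A07Rik stayed higher and past the threshold in each of 18 alternatives, Krt18 in 14 of 16 and Lgals2 in 13 of 18. Against 5 higher genes in the villus-like comparison, there were 3 with DESeq2 size factors, 8 with DESeq2, 3 with apolipoprotein at least 2%, 9 with comparison wells under 0.2%, 89 with no filter, 37 in pairs alone and 3 to 13 with 1 mouse left out (3 without mouse 3, 10 without mouse 5, 13 without mouse 4). The replicate block gave 17, or 17 without mouse 2 and 80 with no filter, the last pair added after seeing the data. Lower genes numbered 0 in the main fit, 2 with no filter, 3 with the replicate block, 3 with the block without mouse 2, 4 with the block and no filter, and 0 to 0 with 1 mouse left out.

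For the difference of differences (1 higher, 1 lower), DESeq2 size factors gave 0 and 18, DESeq2 6 lower, no filter 0 and 0, the replicate block 11 and 36, and leaving out 1 mouse 0 to 3 and 0 to 23 (0 and 0 without mouse 3, 23 lower without mouse 2, 3 higher without mouse 4). Guca2a and Tspan1 both had an adjusted p of 0.10 with no filter. In single cells (422 higher, 446 lower), DESeq2 size factors gave 231 and 738, no filter 670 and 1136, and leaving out 1 mouse 371 to 489 and 374 to 518. The larger minus pair share ranged from -2.33 (without mouse 4) to 6.03 points with 1 mouse left out. The causes were not tested.

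DESeq2 size factors moved the median log2 difference of all genes from -0.05 to -0.68 in clumps and from -0.15 to -0.91 in cells, so directions near 0 are relative to the scaling. The filter left 1346 of 17341 genes, and 1411 without mouse 2, 2831 without mouse 4 and 2988 without mouse 5.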
